A study of Rattus norvegicus with 42 samples.

Results

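The early response of a fast muscle to the loss of weight bearing was examined by comparing the m. extensor digitorum longus (EDL) of 3 rats after 1 day of hindlimb unloading (D1: animals U24, U25 and U26) with the EDL of 3 active control rats (U6, U7 and U8). These 6 libraries were taken by their sample labels from the 42 CAGE libraries of the series, and the members described here are the 9969 TSS peaks, of 9971 in the deposited table, that do not lie on the mitochondrial chromosome. All animals were mature Wistar rats, unloading was done by tail suspension in single cages, and each library came from the frozen muscle of one side of 1 rat. The other libraries were the soleus of the same rats and both muscles in the later phases, unloading for 3 days (D3) or 7 days (D7) and recovery for 1 day (R1), 3 days (R3) or 7 days (R7) after 7 days of unloading, with 3 rats in each group.

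CAGE (cap analysis of gene expression) sequences the capped 5′ ends of RNAs, so that a tag marks the nucleotide at which a transcript started, called a CTSS, and a cluster of such positions on 1 strand is a TSS peak. The EDL is a fast muscle made mostly of type II fibres, many of which work by glycolysis and tire quickly. The soleus is a slow postural muscle that bears weight almost continuously. Tail suspension takes the body weight off the hindlimbs, and the weight-bearing slow muscle is known to lose more mass than the fast one. One gene can have several TSS peaks, and RNA with a cap inside the body of an abundant transcript also gives tags. The deposited table gives no gene names and an annotation of its build, Rnor_6.0, was not used here, so peaks are named by chromosome, start, end and strand, and neither the genes nor the markers of muscle fibres, blood, nerve or immune cells could be looked up. In whole muscle, a change in the number of cells of a type and a change in the RNA per cell cannot be told apart.

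The libraries differed in depth and in how their tags were spread. The controls held 4488404 to 12195006 tags, and the D1 libraries held 1778712 (U24), 2650176 (U25) and 14556431 (U26) tags. Tags inside TSS peaks made up 94.0%, 73.1% and 84.7% of the controls U6, U7 and U8 and 95.4%, 95.03% and 91.9% of U24, U25 and U26. The means were 83.9% ± 10.5 (SD, n = 3) in the controls and 94.1% ± 1.89 at D1, and the groups overlapped (two-sided exact permutation test, p = 0.2, where 0.1 is the smallest p that 3 against 3 allows). Mitochondrial tags took 6.30% to 9.31% of the controls and 7.35% to 10.1% of the D1 libraries, which overlapped as well (exact permutation p = 0.3). Across the tested peaks, log2 CPM correlated with r from 0.945 to 0.970 among the controls, from 0.875 to 0.930 among the D1 libraries and from 0.864 to 0.919 between the groups, a description in which the points share each library's depth. All 3 controls were sequenced on lane 1, U25 and U26 on lane 2 and U24 on lane 6, according to the column names, so lane and unloading cannot be told apart within EDL.

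After 1 day of unloading, 287 TSS peaks of the fast muscle differed from the control, which is 3.07% of the 9343 peaks tested. Of these, 179 were higher (1.92% of the peaks tested) and 108 were lower (1.16%). Called peaks are those with an adjusted p under 0.05 in the edgeR quasi-likelihood test (Benjamini-Hochberg) that changed more than 2.38-fold in either direction. The rises had larger fitted changes than the falls. Their median log2 fold change was 2.71 against −1.75 for the falls and 0.06 over all tested peaks. On the log2 scale 80 rises exceeded 3 and 5 falls were below −3. The ranges are unlike, since 72 rises but 0 falls had a control mean under 2 CPM, where sizes depend more on the prior count. A single tag was already 0.87 CPM in U24 and 0.62 CPM in U25, which limits the size of a fall. The other 626 peaks had too few tags to be tested, with at most 241 tags in any of the 6 libraries, and 82 of them had none. In 278 of the 287 called peaks, all 3 D1 libraries lay on 1 side of all 3 controls, as in 22.7% of all tested peaks. The calls were made on these same libraries, so the count of 278 is largely built into the choice. Over all tested peaks D1 was more often below the controls (12.6%) than above them (10.1%), unlike in the calls. In the fit over all 42 libraries 366 peaks were called, 238 higher and 128 lower, and 5 with lane as a block in that fit. The block raised the median SE over the tested peaks from 0.40 to 0.70 on the log2 scale. Without 1 library, 82 (U25), 94 (U6), 110 (U8) or 469 (U26) peaks were called, and with tag totals as library sizes 122 were higher and 27 lower.

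**Figure D1:**
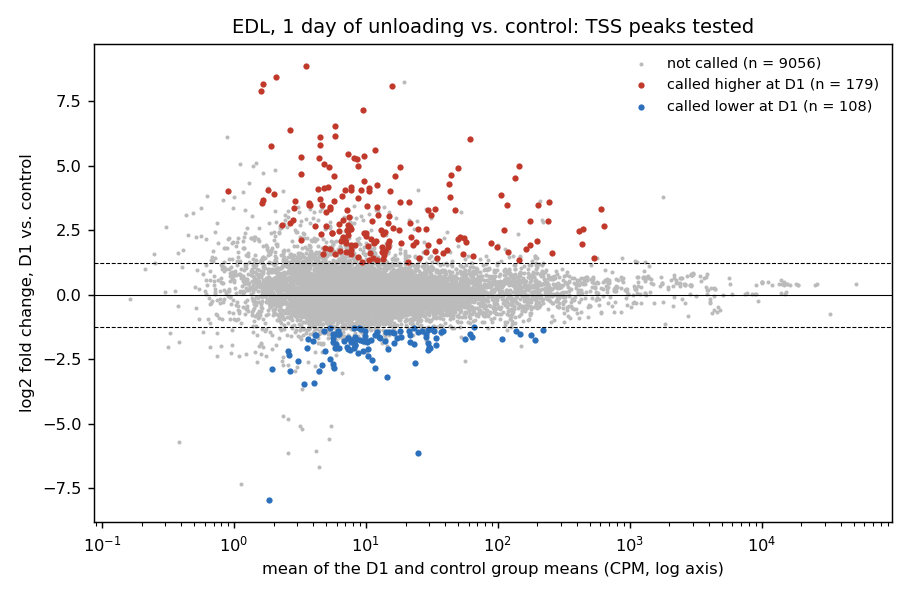
Log2 fold change of each tested TSS peak at D1 vs. control against the mean of the group means in CPM (tags per 1000000 tags inside tested peaks, TMM-scaled, log axis), with called peaks in colour and dashed lines at a 2.38-fold change in either direction. The 179 rises reach 8.89, 74 of the 108 falls are smaller than 2 on the log2 scale, and no peak at the right end of the axis is called.

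The peaks that rose had mostly been weak before unloading. Their median level was 2.72 CPM in the controls and 17.4 CPM at D1, and 72 of the 179 (40.2%) had a control mean under 2 CPM, against 7.95% of all tested peaks. Another 30 rises had a control mean between 10 and 100 CPM, and 7 had 100 CPM or more. The peaks that fell had mostly been moderately active, with a median of 16.2 CPM in the controls and 4.01 CPM at D1, and 73 of the 108 (67.6%) had a control mean between 10 and 100 CPM, against 41.8% of all tested peaks. Since low peaks pass the filter partly through the group in which they are high, these shares are descriptions and were not tested.

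Wide peaks were frequent among the rises. Of the 179 rises, 49 (27.4%) were at least 500 nt wide, against 14 of the 108 falls (12.96%) and 11.1% of all tested peaks. Among the 312 tested peaks wider than 1000 nt, 19 were called higher and 0 were called lower in edgeR, and their median log2 fold change was 0.42. Peaks of at most 100 nt made up 5.03% of the rises, 5.56% of the falls and 12.9% of the tested peaks. Chromosome 4 held 28 rises and 6 falls among 511 tested peaks, the largest number of rises on any chromosome, and 13 of the 28 came from 1 locus, chr4:56710804-56738725(+).

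The size of a rise, in TMM-scaled CPM, differed among the D1 libraries. U25 was the highest D1 library in 138 of the 179 rises, U26 in 29 and U24 in 12. The median ratio to the control mean was 9.92 in U25, 4.71 in U24 and 4.07 in U26. These values carry TMM factors of 0.64 in U25, 0.68 in U24 and 1.15 in U26, which raise the shallow libraries relative to U26. How much of the difference between libraries comes from this scaling was not tested. U26, the only deep D1 library, nevertheless lay above all 3 controls in all 179 rises, U24 in 175 and U25 in 174. In the falls the 3 animals were closer together, with median levels of 26.9% (U24), 23.6% (U25) and 32.6% (U26) of the control mean, and each lay below every control in 108 of 108. The called peaks were chosen on these same libraries, so the counts describe how the calls are made up.

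The D1 libraries also departed from the control mean in a way that depended on the level of a peak. With tag totals as library sizes, peaks with a control level above 0 and up to 5 CPM included 124 of the 179 rises. Over all peaks at this level, the median log2 ratio to the control mean was −0.08 in U24, −0.20 in U25 and 0.69 in U26 (pseudocount 0.5 CPM). It was −0.19 to 0.25 in the controls. From 5 to 10 CPM it was −0.48 in U24 and −0.53 in U25, but 0.31 in U26, while the controls themselves were at 0.34 (U6), −0.32 (U7) and −0.12 (U8). At control levels over 1000 CPM the medians were 0.30 in U24, 0.38 in U25 and 0.00 in U26, and −0.18 to 0.11 in the controls. The part of this shift in the calls was not tested beyond 2 fits. Level-dependent offsets gave 156 rises and 104 falls, with 243 of the 287 peaks called again, and leaving out U24 and U25 gave 44 rises and 7 falls, with 43 called again. The latter fit has U26 as the only D1 library, which is assumed to vary like the other groups and had itself entered the choice of the peaks. The median log2 fold change in it was 2.06 for the rises and −1.59 for the falls.

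The 3 rises with the smallest adjusted p were clear in all 3 animals. The peak chr1:261281619-261281935(+) had 19.3, 13.2 and 7.88 CPM in U6, U7 and U8 and 156, 223 and 218 CPM in U24, U25 and U26. The lowest D1 library was thus several times above the highest control, and the means were 13.5 ± 5.73 and 199 ± 37.6 CPM (SD, n = 3). Its log2 fold change was 3.87 ± 0.44 (SE, edgeR adjusted p = 0.000362). The peak chr5:159967736-159968618(+) had 76.9, 34.3 and 61.1 CPM in the controls and 227, 482 and 563 CPM at D1, so that the groups did not overlap (log2 fold change 2.88 ± 0.34, edgeR adjusted p = 0.000387). The peak chr4:14143419-14143529(+), only 111 nt wide, had 4.94, 8.93 and 6.60 CPM in the controls and 47.9, 51.0 and 67.9 CPM at D1, with little spread within either group (log2 fold change 3.08 ± 0.38, edgeR adjusted p = 0.000394).

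The 10 largest rises, among called peaks whose groups did not overlap and whose mean reached 10 CPM in either group, began from nearly silent peaks. The first of them, chr13:109902790-109902978(-), had 0.167, 0 and 0 CPM in the controls and 6.10, 77.2 and 10.6 CPM at D1. The groups were apart, but U25 alone set most of the D1 mean of 31.3 ± 39.8 CPM, and the 3 controls held 2 tags in all, so the fitted log2 fold change of 8.12 ± 1.59 (edgeR adjusted p = 0.0112) depends on the prior count. The ratio of the pooled levels was 157, with a 95% counting interval from 43.2 to 1306. The peak chr12:13108911-13109087(+) had 0, 0.714 and 0 CPM in the controls, again 2 tags, and 19.2, 26.8 and 10.4 CPM at D1, a more even rise whose pooled ratio was 120 (95% counting interval 33.0 to 1001). In several others the D1 libraries also differed widely. For example, chr18:29330042-29331185(-) had at most 0.213 CPM in the controls and 0.871, 32.4 and 1.23 CPM in U24, U25 and U26, and chr16:81639096-81639190(+) had at most 0.251 CPM in the controls and 7.84, 26.1 and 0.714 CPM at D1. Counting intervals cover counting error only. Of the 10 rises, 7 lost the call without the control U8, and 6 of these also without U25, where their log2 fold changes were 3.18 to 6.31.

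Among these 10, the most abundant at D1 was chr8:81963512-81963882(+). It had 3.18, 0.714 and 0.639 CPM in the controls and 72.3, 251 and 45.0 CPM in U24, U25 and U26. Every D1 library was more than 10 times above every control, although U25 stood well above the other D1 libraries (log2 fold change 6.05 ± 1.03, edgeR adjusted p = 0.00337). The remaining 5 had control means of 0.337 to 0.504 CPM and D1 means of 15.8 to 22.9 CPM. The pair chr1:104157763-104157927(-) and chr1:104152972-104153108(-), lie less than 5 kb apart, had the same 19.2 CPM in U24, and rose by 5.63 ± 0.87 and 5.37 ± 0.79 on the log2 scale (edgeR adjusted p = 0.00181 and 0.00157). The others were chr4:30553269-30553410(-), chr10:12996888-12997247(-) and chr1:254727031-254727833(-), with log2 fold changes of 5.32, 5.29 and 4.99. Over all fits these values ranged from 4.13 to 5.68, from 1.57 to 7.44 and from 1.19 to 5.67. In chr10:12996888-12997247(-) the D1 library U24 had 0.871 CPM, close to the 0.670 CPM of the control U6, while U25 had 41.7 and U26 had 8.18 CPM. The D1 libraries of chr1:254727031-254727833(-) were also far apart, with 7.84, 40.5 and 2.92 CPM in U24, U25 and U26.

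**Figure D2:**
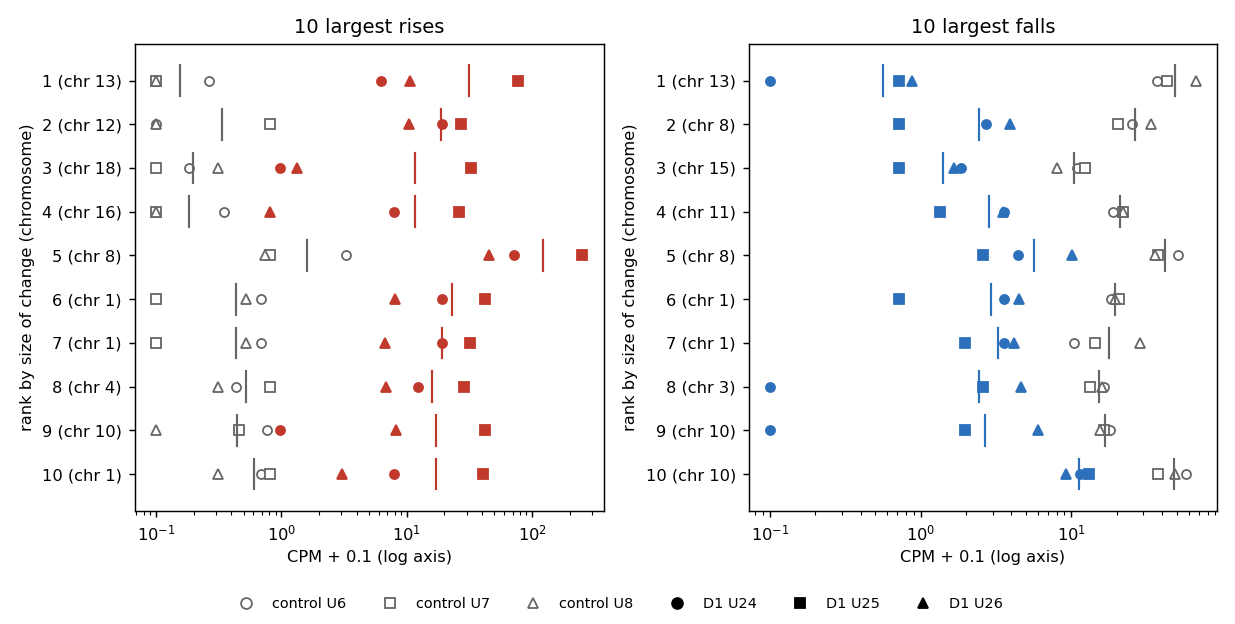
Level in each of the 6 libraries (CPM + 0.1, log axis) of the 10 peaks that rose most and the 10 that fell most, ordered by the size of the log2 fold change and labelled by chromosome; open grey symbols are controls, filled symbols are D1 and vertical bars are group means. In the rises U25 lies to the right of U24 and U26 in every row, and in the falls all D1 libraries lie to the left of all controls.

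The largest fall chosen in the same way was a near loss of signal. The peak chr13:112005017-112005208(-) had 36.8, 42.9 and 67.1 CPM in U6, U7 and U8 and 0, 0.622 and 0.779 CPM in U24, U25 and U26, which is 875 tags in the controls and 13 at D1. No D1 library came near a control, and the log2 fold change was −6.16 ± 1.22 (edgeR adjusted p = 0.0088). The fall with the smallest adjusted p was chr8:116094675-116094958(+), with 24.9, 20.4 and 33.9 CPM in the controls and 2.61, 0.622 and 3.83 CPM at D1 (log2 fold change −3.21 ± 0.39, edgeR adjusted p = 0.000394). It held 3 tags in U24, 1 in U25 and 59 in U26.

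The other falls were smaller. The peak chr8:110982819-110983260(+) went from 51.2, 37.5 and 35.6 CPM to 4.35, 2.49 and 9.93 CPM, and chr10:85548222-85548506(-) went from 57.3, 37.5 and 48.8 CPM to 11.3, 13.1 and 9.09 CPM. In U24, U25 and U26 the first held 5, 4 and 153 tags and the second 13, 21 and 140 tags. Their log2 fold changes were −2.67 ± 0.52 and −2.14 ± 0.47 (edgeR adjusted p = 0.0073 and 0.0139). Another 6 of the 10 falls, on chromosomes 1, 3, 10, 11 and 15, had control means of 10.2 to 20.8 CPM and D1 means of 1.31 to 3.15 CPM. Within them the controls of chr1:102396470-102397331(+) were close to each other at 18.3, 20.7 and 19.4 CPM, while those of chr1:215727185-215727620(-) ranged from 10.4 to 28.3 CPM. The shallow libraries U24 and U25 held 0 to 4 tags each in these 6 peaks, and U26 held 24 to 91. Of the 10 falls, 7 lost the call without U25, with log2 fold changes of −6.15 to −1.97, and chr8:116094675-116094958(+), chr15:2374512-2374870(+) and chr3:11630172-11630711(+) were called without any 1 library.

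The other falls with the smallest adjusted p also rested on few tags in the shallow libraries, 4 each in U24 and U25 for the first peak and 2 each for the second, so that the D1 spread is poorly known. The peak chr9:100930097-100930406(-) had 13.8, 11.8 and 14.5 CPM in the controls and 3.48, 2.49 and 3.96 CPM at D1 (log2 fold change −1.94 ± 0.26, edgeR adjusted p = 0.000672). The peak chr10:104253192-104253536(-) had 11.6, 9.29 and 8.31 CPM in the controls and 1.74, 1.24 and 1.56 CPM at D1 (log2 fold change −2.67 ± 0.37, edgeR adjusted p = 0.000741).

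Called peaks without a single tag in one of the groups were rare. The peaks chr2:243334487-243334616(+) and chr5:160471679-160471960(-) had 0 tags in the 3 controls and tags in every D1 library, 5, 25 and 21 and 1, 8 and 57 tags in U24, U25 and U26, which is at least 18.2-fold and at least 23.6-fold higher, taking the floor of 3 tags over the group. Another 2, chr10:82759904-82759968(+) and chr12:16973285-16973480(+), had 0 control tags but were also at 0 in 1 shallow D1 library, and 152 and 116 of their tags came from U26. The peak chr5:128557847-128557960(+) had 12, 14 and 24 tags in the controls and 0 at D1, at least 15.6-fold lower.

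The most active peaks of the muscle were not called. The peak with the highest control level, chr14:46643057-46647705(+), had 37597, 48929 and 47363 CPM in the controls and 70314, 72361 and 35887 CPM in U24, U25 and U26. After TMM scaling U24 and U25 were above and U26 was below all 3 controls (log2 fold change 0.42 ± 0.34, edgeR adjusted p = 0.539). The TMM factors were 0.68, 0.64 and 1.15 in U24, U25 and U26 and 1.04, 0.85 and 0.86 in U6, U7 and U8. Per tag total of each library, U26 was not below the controls, so this order depends on the scaling. With the same scaling, this split between the shallow and the deep D1 libraries was present in chr14:46640859-46642302(+), chr14:46329466-46329910(-) and chr1:11967774-11968923(+). Their log2 fold changes were 0.43, 0.37 and 0.38. In contrast, chr19:56676367-56677617(-) had 50914, 30982 and 43544 CPM in the controls and 22605, 22750 and 28760 CPM at D1. All D1 libraries were thus lower after TMM scaling, with a log2 fold change of −0.76 ± 0.33 (edgeR adjusted p = 0.223). Per tag total of each library the groups overlapped, with U26 above U7.

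Some rises came as several peaks of 1 locus, which was rare among the falls. When called peaks of the same strand and direction were joined over gaps of at most 20000 nt, the 179 rises formed 130 loci, 25 of which held more than 1 called peak and 74 rises in all, so most rises were single peaks too. The 108 falls formed 106 loci, 2 of which held more than 1 called peak and 4 falls in all. Of the 113 rises with a tested neighbour on the same strand within that distance, 103 neighbours (91.2%) had a log2 fold change above 0, and for the falls 21 of 26 neighbours (80.8%) had one below 0. Over all 3445 tested peaks with such a neighbour, 66.7% had the same sign. Peaks of 1 locus share their position and can share a transcript, so they are not independent.

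The locus with the most called peaks lay on the plus strand of chromosome 4, at chr4:56710804-56738725(+). The loci given here were picked by their number of called peaks, after the values were seen. Of its 14 tested peaks, 13 were called higher with log2 fold changes of 1.97 to 4.26, and the other one had the same sign. The called peaks summed to 251, 177 and 174 CPM in U6, U7 and U8 and to 512, 1580 and 836 CPM in U24, U25 and U26, groups that did not overlap and in which the D1 libraries differed about as much from each other as from the controls. The means were 201 ± 43.1 and 976 ± 548 CPM (SD, n = 3).

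Further loci showed larger relative rises over a lower base. On the minus strand of chromosome 1, chr1:104147252-104166599(-) held 5 tested peaks, all called, which summed to 8.96, 5.00 and 6.82 CPM in the controls and 91.4, 161 and 50.0 CPM at D1. At chr4:30545275-30556951(-) all 4 tested peaks were called and summed to 58.3, 60.4 and 29.2 CPM in the controls and 428, 975 and 811 CPM at D1. At chr7:98060753-98065447(-), 4 peaks spread over 4695 nt rose together from 20.8, 23.2 and 14.9 CPM to 104, 179 and 57.4 CPM, with nearly the same log2 fold change in each, 2.40 to 2.55. In all 3 loci every D1 library was above every control.

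Some loci depended strongly on the animal. The sum over the 3 called peaks of chr8:128702211-128712139(-) was 61.5, 23.2 and 31.3 CPM in the controls and 120, 1189 and 344 CPM in U24, U25 and U26, so that U25 was almost 10 times above U24. At chr10:40742438-40764415(-) it was U26 that stood out, with 3021 CPM against 667 in U24 and 225 in U25, and the control U7, at 259 CPM, was above U25. At chr5:159967736-159971784(+), 3 peaks rose from a sum of 82.2, 40.0 and 70.3 CPM to 287, 642 and 626 CPM. On the opposite strand of that same region, chr5:159970244-159971575(-), 2 weak peaks were also called higher, from 0.502, 1.07 and 0.639 CPM to 12.2, 34.9 and 6.49 CPM, so both strands gave more tags at D1.

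The rises of the first day were partly lost by D3. Among the 179 peaks higher at D1, the median log2 fold change against the control went from 2.71 on the first day to 1.47 at D3 and 1.60 at D7, and to 0.62, 0.44 and 0.22 in the phases R1, R3 and R7. Of these, 42 were also called higher at D3 and 32 at D7, where 0.963% and 0.599% of all tested peaks were called higher. In recovery 0 of the 179 were called by edgeR, as 0 of all tested peaks were called at R1, R3 or R7. The 108 falls had medians of −1.75 on the first day, −0.67 at D3 and −0.91 at D7, then −0.44, −0.38 and −0.25 in recovery. Of these, 4 were called lower at D3 and 14 at D7, where 0.3% and 0.492% of all tested peaks were called lower. All phases were compared with the same 3 controls, and the peaks were chosen for their D1 values, so a smaller value in the later phases is partly built into the choice.

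**Figure D3:**
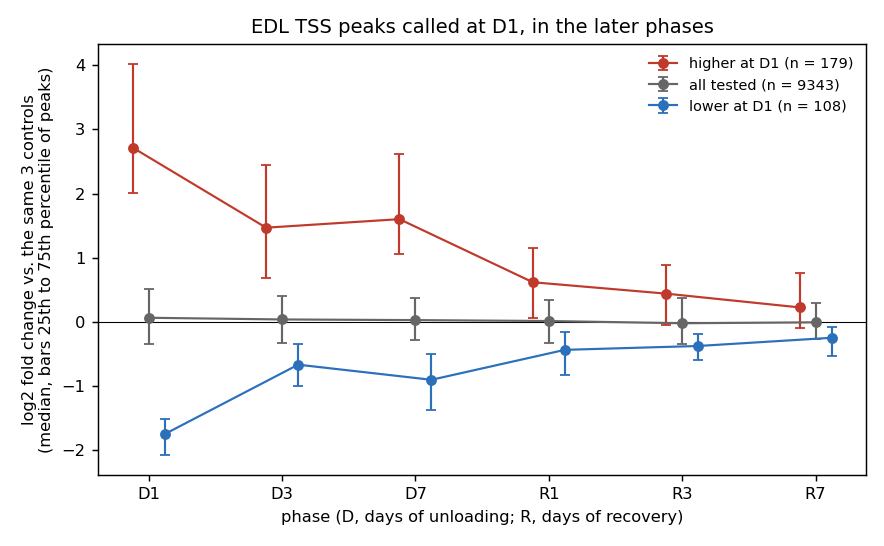
Median log2 fold change against the same 3 controls, with bars from the 25th to the 75th percentile over peaks, in each phase for the 179 peaks higher at D1, the 108 peaks lower at D1 and all 9343 tested peaks. The rises go from 2.71 at D1 to 1.47 at D3 and 0.22 at R7, the falls from −1.75 to −0.67 and −0.25, and all tested peaks stay near 0.

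The direct comparison of D3 with D1 called 253 peaks, which is 2.71% of the 9343 tested (edgeR), 94 higher at D3 (1.01%) and 159 lower at D3 (1.7%). Of the 179 rises of D1, 41 were called lower at D3 than at D1, and 21 had a log2 fold change D3 vs. D1 above 0. Of the 108 falls, 32 were called higher at D3, and 107 had such a value above 0. The rises and falls were chosen on the same D1 libraries, so these counts and the values of single peaks below are partly built into the choice. One of the 41 was chr4:14143419-14143529(+), which had 55.6 ± 10.8 CPM at D1 and 5.54 ± 1.32 CPM at D3 (SD, n = 3), close to its control mean of 6.82 CPM, and 18.7 ± 7.36 CPM at D7 (log2 fold change D3 vs. D1 −3.34, edgeR adjusted p = 0.000272, and D7 vs. control 1.52, adjusted p = 0.0508). The fall of chr13:112005017-112005208(-), with a control mean of 48.9 CPM, went from 0.467 ± 0.412 CPM at D1 to 19.99 ± 19.3 CPM at D3, with a wide spread among the D3 animals (log2 fold change D3 vs. D1 4.87, edgeR adjusted p = 0.0362). It had 16.5 ± 14.4 CPM at D7 and 112 ± 40.8, 135 ± 93.8 and 113 ± 87.5 CPM at R1, R3 and R7, means above that of the controls that were not called. Other peaks were still high at D3. The peak chr1:261281619-261281935(+) had 232 ± 141 CPM at D3 and 173 ± 58.1 CPM at D7, and chr5:159967736-159968618(+) had 511 ± 74.4 and 341 ± 28.6 CPM, and both were called higher at D3 (edgeR adjusted p = 0.000117 for each). The count of 253 changed strongly with the samples: it was 15 without the D3 library U9, 37 without the D3 library U10, 674 without the D3 library U11, 809 without the D1 library U26, 143 without U24, 95 without U25 and 2 when only the 2 groups were fitted.

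The response of the fast muscle to 1 day of unloading differed from that of the slow muscle of the same animals at 203 peaks, 2.04% of the 9945 tested in a fit over all 42 libraries (edgeR interaction test). Values of this comparison are CPM scaled over all 42 libraries and so differ slightly from those of the EDL fit. The D1 change was more positive in EDL at 138 (1.39%) and more negative in EDL at 65 (0.654%). In 182 of the 203 peaks the fitted changes of the muscles had opposite signs, which the choice for a large difference partly fixes. The change itself was called in EDL at 119 of the 203 and in soleus at 62. The 179 rises of EDL had a median log2 fold change of 0.08 in soleus, 13 of them were called higher and 10 lower there, and the difference between the muscles itself was called in 81. The 108 falls of EDL had a median of −0.48 in soleus, 87 were below 0 there, 11 were called lower and 1 higher, and the difference was called in 20. These rises and falls were chosen on EDL libraries that also enter the difference between the muscles. The counts of 81 and 20 are therefore partly built into the choice. As a background, 2.43% of the 9945 peaks were called in soleus at D1, 1.08% higher and 1.36% lower. Without the EDL library of U25 the difference was called at 113 peaks, and without that of the control U6 at 126.

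**Figure D4:**
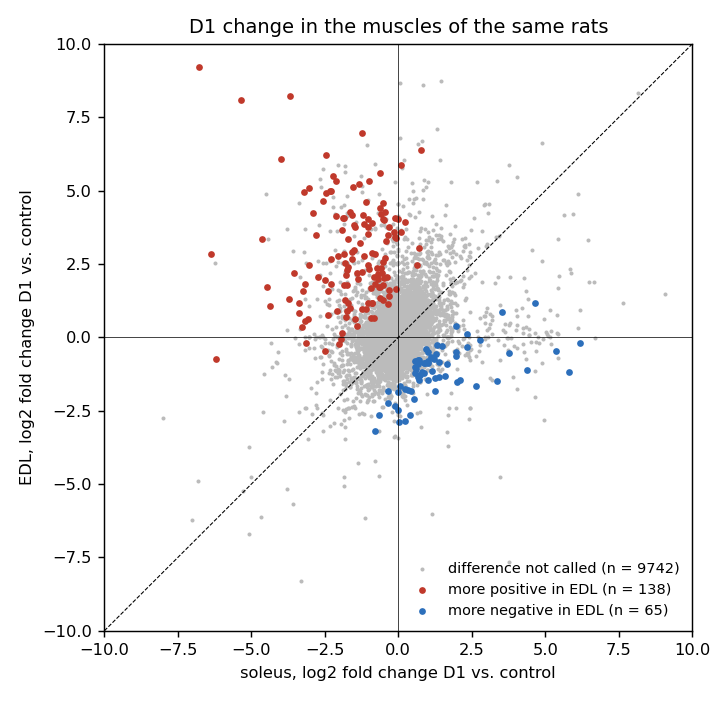
Log2 fold change of each tested TSS peak at D1 vs. control in EDL (vertical axis) and in soleus (horizontal axis) from the fit over all 42 libraries, with peaks coloured where the difference between the muscles was called and the dashed line marking equal change. Most of the 138 red peaks lie in the upper left, above 0 in EDL and below 0 in soleus, and the 65 blue peaks lie below the line.

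The direction of the change in EDL went with the difference between the control muscles. All 3 soleus controls were above all 3 EDL controls in 84 of the 179 rises (46.9%), against 20.1% of the peaks tested, and below them in 65 of the 108 falls (60.2%), against 18.6%. The opposite order was present in 6 of the rises and 13 of the falls. The EDL controls entered the choice of these peaks, so the counts are a description, made after the values were seen.

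Of the 3 rises of EDL with the smallest adjusted p, 2 belonged to peaks that are strong in the slow muscle. The peak chr1:261281619-261281935(+) had 882, 812 and 849 CPM in the soleus of U6, U7 and U8, against 21.5, 14.9 and 8.72 CPM in their EDL, and 359, 650 and 124 CPM in the soleus at D1. The peak chr5:159967736-159968618(+) had 846, 553 and 807 CPM in soleus controls, against 85.6, 38.8 and 67.6 CPM in EDL controls, and 171, 435 and 125 CPM in soleus at D1. At D1 the EDL of U26 was thus above the soleus of U26 in both peaks, at 249.6 and 644 CPM, while in U24 and U25 only the chromosome 5 peak was higher in EDL. The difference in the D1 change was 5.05 and 4.49 on the log2 scale (edgeR adjusted p = 0.000108 and 2.09e-05). The third rise, chr4:14143419-14143529(+), had 9.83, 24.7 and 3.44 CPM in soleus controls and 5.49, 10.1 and 7.31 CPM in EDL controls, which overlapped. Among the 10 largest falls, soleus controls ranged from 0 to 0.807 CPM in chr11:76887998-76888136(-), the lowest, to 37.0 to 98.6 CPM in chr13:112005017-112005208(-), the highest, which overlapped with its EDL controls. How much soleus tissue or other cell types took part in these values was not tested.

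The clearest of these differences between the muscles were peaks that rose in EDL and fell in soleus.  In chr8:81963512-81963882(+) EDL had 3.54, 0.808 and 0.707 CPM in the controls and 81.9, 275 and 51.5 CPM at D1, and soleus had 30.3, 22.7 and 21.7 CPM in the controls and 1.16, 2.86 and 0.451 CPM at D1. The groups were apart in both muscles, in opposite directions (difference of the log2 fold changes 10.05 ± 1.29, edgeR adjusted p = 2.09e-05). The peak chr17:86408061-86409121(+) had 3.82, 0.404 and 4.01 CPM in EDL controls and 9.87, 45.1 and 11.5 CPM at D1, against 6.18, 10.1 and 55.6 CPM in soleus controls and 0.194, 0.229 and 0.376 CPM at D1 (difference 9.19 ± 1.31, edgeR adjusted p = 7.81e-05). The peak chr13:109902790-109902978(-) had the largest fitted difference among peaks with a mean of at least 10 CPM in any of the 4 groups, 13.46 ± 3.55 (edgeR adjusted p = 0.0426), but soleus had at most 1.13 CPM in any control and 0 tags at D1, so its size depends on the prior count.

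In the 3 most negative differences under the same condition, the called change was in soleus. The peak chr10:53792018-53792235(+) had 246, 437 and 320 CPM in EDL controls and 209, 488 and 183 CPM at D1, with overlapping groups, while soleus had at most 0.231 CPM in the controls and 0.970, 0.229 and 15.0 CPM at D1 (difference −6.38 ± 1.68, edgeR adjusted p = 0.0353). The peaks chr13:108590444-108590656(-) and chr1:100525882-100525912(-) had differences of −6.98 ± 1.83 and −5.83 ± 1.53 (edgeR adjusted p = 0.0335 and 0.0406). In soleus at D1 the animal U26 had 6.54 and 1.204 CPM at these peaks and the other D1 animals at most 0.194 CPM. The 3 differences therefore rest on the soleus library of U26, and none of the 3 had a called change in EDL. With the animal as a block they were −5.05 at chr10:53792018-53792235(+), −5.96 at chr13:108590444-108590656(-) and −5.55 at chr1:100525882-100525912(-) and were no longer called (edgeR adjusted p = 0.367, 0.143 and 0.195).

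Transcripts also started at other positions within some peaks. The tag-weighted mean start position, counted in nt from the 5′ edge of the peak in the direction of transcription, was compared in the 1410 peaks with at least 50 tags in each of the 6 libraries. A shift was called at 13 peaks, 0.922% of those tested, at an adjusted p under 0.05 (limma, Benjamini-Hochberg) and a size of at least 5 nt. The start moved downstream at D1 in 12 of them and upstream in 1, and the median shift over all 1410 was 0.28 nt. Before adjustment, 244 peaks had a p under 0.05 (limma), 203 downstream and 41 upstream. Lane was not fitted as a block for start positions and cannot be told apart from unloading within EDL. In all 13 the D1 libraries were apart from the controls, as in 19.5% of the peaks tested. A called change in level was present in 2 of the 13 and in 32 of the 1410.

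In 2 peaks all 3 D1 libraries had another most used start than all 3 controls. In chr2:219842560-219843255(-) the top position was at 438 nt in U6, U7 and U8, with 13.1% to 14.4% of the tags, and at 216 nt in U24, U25 and U26, with 12.5% to 14.04%. The mean start was 420, 404 and 412 nt in the controls and 351, 339 and 377 nt at D1, which is a shift of −56.4 ± 12.04 nt (SE, limma adjusted p = 0.0295), the only one upstream. This call was lost without any 1 library other than U26, with shifts of −60.3 to −48.2 nt. The level of this peak fell by 1.58 on the log2 scale (edgeR adjusted p = 0.00678). In chr8:181274-181478(-) the top position was at 139 nt in the controls, with 29.2% to 31.3% of the tags, and at 160 nt at D1, with 35.1%, 46.5% and 37.1% in U24, U25 and U26. Its mean start moved by 23.3 ± 3.68 nt (limma adjusted p = 0.00349) while its level was not called (log2 fold change 0.73, edgeR adjusted p = 0.364). In chr18:29173394-29173583(+) the top position was at 86 nt in the controls and in U25, and at 158 nt in U24 and U26.

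In other peaks the same top position was kept while the mean start moved. In chr6:23580766-23581306(-) the mean start was 318, 321 and 324 nt in the controls and 363, 361 and 360 nt at D1, so that the groups were apart (shift 40.5 ± 5.96 nt, limma adjusted p = 0.00204). The top position, at 303 nt, held 20.4% to 25.3% of the tags in the controls and 19.1% to 20.6% at D1, and the level did not pass the test (log2 fold change 0.11, edgeR adjusted p = 0.855). In chr16:68968102-68968374(-) the mean went from 125, 125 and 128 nt to 146, 148 and 140 nt (shift 18.7 ± 2.07 nt, limma adjusted p = 0.00032). The median start position moved by less than the mean, 6 nt in the first peak and 9.33 nt in the second, where this shift was not called, and the shift of the first was not called after thinning to 50 tags. At D3 the mean of the first peak was 327 ± 15.7 nt and that of the second 133 ± 1.83 nt (SD, n = 3).

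The largest shifts were those of chr14:46633746-46634431(+), 94.6 ± 19.1 nt, and chr14:46581026-46581726(+), 84.4 ± 14.7 nt (limma adjusted p = 0.0203 and 0.00588). These peaks had similar widths, 686 and 701 nt, and similar counts in every library, for example 462 and 453 tags in U6 and 409 in U26 for both. Their top positions differed among libraries of the same group. They may share reads, since the mapping allowed a read to have several loci, and are given as uncertain. The other 7 shifts were 7.79 to 19.9 nt. The number of shifts called was 45, of which 41 were downstream, without U26, and 2 when each peak was thinned to 50 tags in every library.

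**Figure D5:**
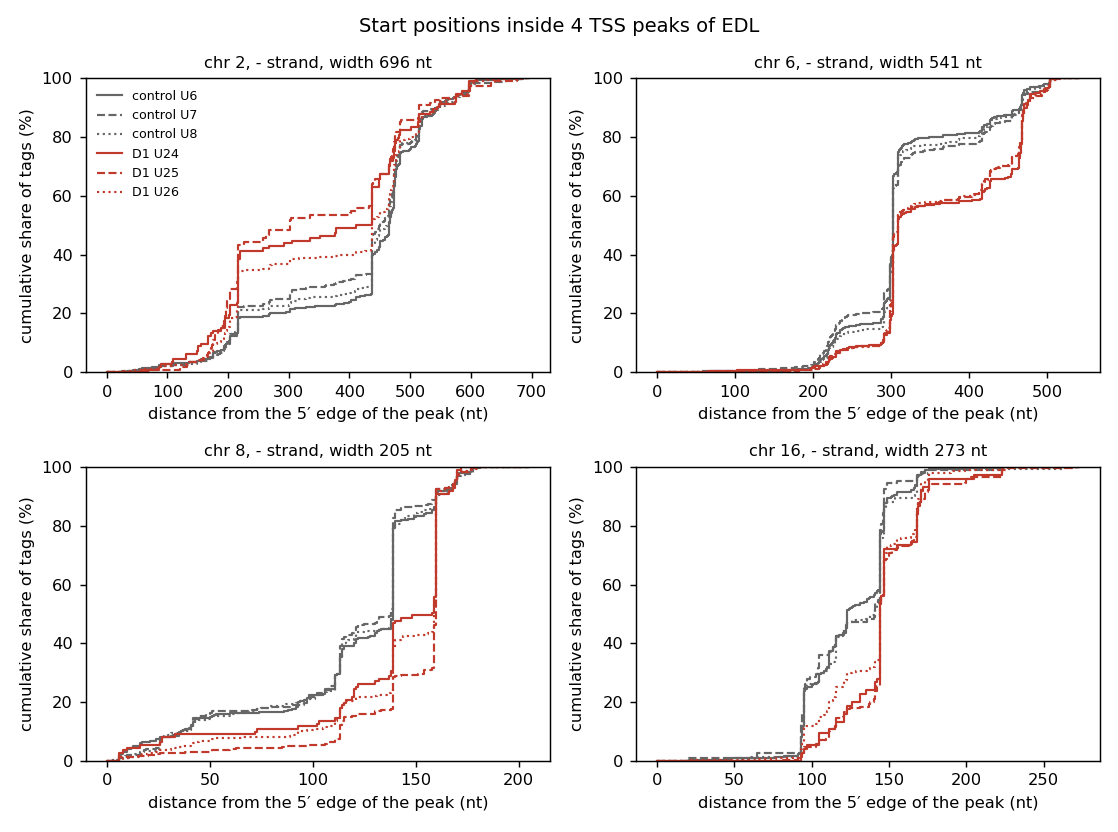
Cumulative share of tags (%) along 4 TSS peaks, against the distance from the 5′ edge of the peak in nt, for the 3 control libraries (grey) and the 3 D1 libraries (red) of EDL. The D1 curves lie to the left of the controls in the chromosome 2 peak (shift −56.4 nt) and to the right in the peaks of chromosomes 6, 8 and 16 (40.5, 23.3 and 18.7 nt).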

How the data were processed

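For each library the authors deposited counts of tags per CTSS position and strand, and for the whole series a table of raw counts of the same 42 libraries over 9971 TSS peaks, on Rnor_6.0. A further 42 columns of normalized values in that table were left out. Per the methods, nAnT-iCAGE libraries were sequenced single-end, reads were trimmed with Trimmomatic (0.38 in the submitters' processing notes), mapped with STAR with several loci allowed per read, aggregated with PromoterPipeline and clustered with DPI1. The notes also name BWA and HISAT2, whose role is not given in the sources used here.

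Levels were compared by edgeR 4.0.16 under R 4.3.3 on the raw counts (filterByExpr, TMM, quasi-likelihood test), with all 21 EDL libraries in 1 fit, and all 42 for the muscle difference. The main tool of the study, DESeq2 (1.42.0), was an alternative. Start positions were tested with limma 3.58.1. Standard errors were obtained as the size of the log2 fold change divided by the square root of F. CPM are per 1000000 tags inside tested peaks after TMM. Peaks named are the 10 largest rises and falls among called peaks with non-overlapping groups and at least 10 CPM in either group, 1 per locus of 1000 nt, the 3 smallest adjusted p in each direction, the 5 highest control levels, and the 3 largest muscle differences in each direction with a mean of at least 10 CPM in any of the 4 groups. The zero-tag peaks, the loci, the start shifts and the comparison of control muscles were named after their values were seen. The members and lists were chosen with earlier results of these data known. Scripts were tested on simulated counts. The other calculations used Python 3.11.15, numpy 2.4.6, pandas 2.3.3 and scipy 1.17.1. Alternatives were other scalings, no filter, thinning, quality weights, lane, fewer libraries and, chosen after seeing the data, level-dependent offsets and leaving out U24 with U25 or U7 with U8.

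A rat has the same number in its EDL and soleus labels. Within a rat, deviations from the 2 group means correlated with r from −0.05 to 0.42 over the 6 control and D1 animals. Gene lists and cell type markers fixed for an annotated table were not used.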

Additional observations from a re-analysis of the deposited data

Results flagged for a closer look

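The change from control to D1 differed between the EDL and the soleus at 203 TSS peaks by the edgeR interaction test. Picked out here are 6 of them, the 3 largest in each direction among those with a mean of at least 10 CPM in any of the 4 groups. The differences of the log2 fold changes, EDL minus soleus, were 13.46 at chr13:109902790-109902978(-), 10.05 at chr8:81963512-81963882(+) and 9.19 at chr17:86408061-86409121(+). They were −6.98 at chr13:108590444-108590656(-), −6.38 at chr10:53792018-53792235(+) and −5.83 at chr1:100525882-100525912(-). The differences at chr8:81963512-81963882(+) and chr17:86408061-86409121(+) passed the threshold in all 20 other fits, and each of the other 4 in 5 to 10 of them. Groups of 3 libraries were too small for a search for single libraries that stand apart.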

How the results depend on the processing

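All 287 peaks called at D1 kept their sign in every fit in which they were tested, except with lane as a block, where 282 did, which their choice on the same libraries partly fixes, but the number called moved. It was 149 with tag totals as library sizes (122 higher, 27 lower), 173 after thinning, 492 with limma voom and quality weights (360 and 132), and 366 with all 42 libraries, or 5 with lane as a block in that fit. It was 51 without U24 and U25 (44 and 7) and 16 without U7 and U8 (1 and 15), both chosen after seeing the data, the latter leaving 1 control that is assumed to vary like the other libraries. Leaving out 1 library gave 82 (without U25) to 469 (without U26, 237 higher), with 94 without U6 and 110 without U8. In the 15 planned fits other than those with lane, 33 rises and 11 falls were called every time. For D3 vs. D1, the count was 624 with DESeq2, 1046 with limma voom, 314 with all 42 libraries, 835 with lane as a block in that fit, 2 with only the 2 groups and 71 without U24 and U25, and 15 to 809 when 1 library was left out. The muscle difference was called at 87 peaks after thinning, 83 without both shallow libraries and 113 to 234 without 1 library. The animal as a replicate block gave 206 peaks, 163 of them shared, and ended the call of the 3 most negative named differences but of none of the 3 most positive ones. Start shifts were 27 with at least 20 tags, 6 with at least 100, 8 for the median position, 6 with only the 2 groups, 2 after thinning and 9 to 45 without 1 library.

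The difference in the share of tags inside peaks was 10.2 percentage points, 0.964 with the label library sizes, and 4.79 to 15.2 without 1 library. That of mitochondrial tags was 1.41, 0.351 and 0.690 to 2.30. Of the 5 peaks with the highest control level, 4 turned direction in 1 or 2 fits, and chr19:56676367-56677617(-) in none. With lane as a block the log2 fold change was −0.14 at chr14:46643057-46647705(+), −0.0059 at chr14:46640859-46642302(+) and −0.27 at chr14:46329466-46329910(-). Without U24 and U25 it was −0.29, −0.24 and −0.65, and −0.11 at chr1:11967774-11968923(+). At chr19:56676367-56677617(-) limma voom gave −0.83 (adjusted p = 0.0236). The cause of these moves was not tested. U24 and U25 were the shallowest of the 6 control and D1 libraries of EDL and limit what can be said of weak peaks that fell.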
